A study of Mus musculus with 8 samples.

Results

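The Ly6/uPAR family genes described here are 8 of the 21690 genes in the deposited expression table: Slurp1, Lynx1, Lypd3, Lypd5, Ly6d, Ly6g6c, Ly6e and Ly6a. They were chosen by name, with earlier results of the same comparison known, so their own levels and differences are given as description without a test. All 8 were found by gene identifier, and all 8 had a mean of at least 1 TPM (a share of all transcripts, scaled by transcript length), the minimum used for any fit.

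Back-skin epidermis of mouse pups at postnatal day 5 was sequenced in 8 libraries, 4 experimental and 4 control, which the labels call biological replicates. Experimental pups had the genotype K5rTA tetOCre Esrp1flox/flox; Esrp2-/-, in which a keratin 5 transactivator drives Cre when doxycycline is given; keratin 5 is made by basal keratinocytes. Control pups were Esrp1flox/flox; Esrp2-/- and carried neither transgene. Dams of both groups ate high-dose doxycycline chow starting on embryonic day 17, so both groups shared, by genotype label, the Esrp2 null alleles, the floxed Esrp1 alleles and the drug. ESRP1 and ESRP2 bind RNA and control splicing in epithelial cells. The groups differed in the Esrp1 deletion and in the transgenes together, which cannot be told apart. Esrp1 lay between 49.8 and 75.6 TPM in experimental libraries, against 131 to 162 TPM in control libraries. Esrp2, labelled null in both groups, still had a listed level of 4.98, 3.25, 5.28 and 4.22 TPM in experimental libraries, against 3.07, 0, 2.14 and 3.31 TPM in control libraries. The labels do not say which part of Esrp2 is missing, so these values do not check the genotype.

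Ly6/uPAR proteins share a small disulfide-bonded fold with finger-like loops. Most are tethered to the outer cell membrane by a glycosylphosphatidylinositol (GPI) anchor, whereas the SLURP proteins are secreted. Several bind nicotinic acetylcholine receptors, the receptors through which keratinocytes sense locally made acetylcholine. In human skin, loss of SLURP1 causes the palmoplantar keratoderma Mal de Meleda, and mice without Slurp1 also develop thickened paw skin.

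The libraries differed in more than the labelled groups, which bears on what follows. A list of 14 basal keratinocyte markers (12 with a row in the table, none at 0 in every library) summed to between 1767 and 3033 TPM in experimental libraries and between 928 and 8113 TPM in control libraries. A hair follicle list of 23 markers, 22 with a row, summed to between 1954 and 13687 TPM in experimental libraries and between 8112 and 59548 TPM in control libraries. Control libraries 3 and 4 had the lowest basal and highest hair follicle sums among controls. The list called granular layer here mixes markers of the last living layer, where several Ly6/uPAR genes are active, with others. It includes Krt1 and Krt10, keratin genes of the suprabasal layers as a whole, and Tchh, which is also on the hair follicle list. All 25 genes were in the table. The sums ran between 131240.0 and 176872 TPM in experimental libraries and between 106005 and 131871 TPM in control libraries. Lor, Krt10, Krtdap, Flg and Krt1 made up large parts of these sums. Lor averaged 29083 ± 8864 TPM in experimental and 22678 ± 5891 TPM in control libraries (SD, n = 4 each). Krtdap averaged 20726 ± 2390 and 13751 ± 1883 TPM, and Flg 19120 ± 1979 and 17454 ± 2683 TPM, in the same order. Krt1 averaged 19005 ± 3531 TPM in experimental and 11546 ± 4148 TPM in control libraries, and Krt10 25145 ± 4628 and 16787 ± 4943 TPM (SD, n = 4 each). Of the list's 24 tested genes none passed limma's adjusted threshold. Without passing, 17 lay above 0 (median log2 change 0.26), and 9 had an unadjusted p under 0.05, against 1810 of all 10682 genes tested. Groups did not overlap for 6 higher and 2 lower genes of the 24, where 2.7% and 9.94% of all genes were higher and lower without overlap. Those of lowest p were Ivl, the involucrin gene, at 715 ± 156 TPM in experimental and 407 ± 39.5 TPM in control libraries (adjusted p = 0.065), and Klk8, a skin protease gene, at 646 ± 30.1 TPM in experimental and 458 ± 29.7 TPM in control libraries (adjusted p = 0.131; SD, n = 4 each).

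Among markers of other layers and appendages, 3 genes fell. Krt15, a basal and follicle stem cell keratin gene, averaged 108 ± 49.9 TPM in experimental and 877 ± 497 TPM in control libraries (SD, n = 4 each; log2 change -2.82, limma adjusted p = 0.0361), the 1 gene of 12 tested in the basal list to pass. The sebaceous gland list had 12 of 13 genes below 0 (median log2 change -1.31), and 2 fell: Elovl3, a fatty acid elongase gene (log2 change -1.99, limma adjusted p = 0.0116), and Plin2, a lipid droplet gene (-1.41, adjusted p = 0.0498). The call of Elovl3 was lost under 1 of 18 alternatives (without experimental libraries 2 and 4, adjusted p = 0.201), that of Krt15 under 12 and that of Plin2 under 15. The sebaceous sums overlapped, at 2799 to 3379 TPM in experimental and 2522 to 4178 TPM in control libraries. All 21 tested hair follicle genes lay below 0 (median -1.65) and none passed, with Hoxc13 (-1.75, adjusted p = 0.0584) and Msx2 (-1.43, adjusted p = 0.0636) of lowest p. Of these 21, 14 had an unadjusted p under 0.05 in limma, against 1810 of all 10682 genes tested. Of the same 21, 7 were lower without overlap of the groups, where 9.94% of all genes were. In the sebaceous list 7 of 13 had such a p and 4 were lower without overlap. The authors' deposited table has 748 rows, all with a negative fold change and an adjusted p of at most 0.0499. It holds 10 genes of the hair follicle list, 6 of the sebaceous list, and Krt15. The authors' adjusted p (DESeq, Wald score) was 5.6e-06 for Krt15, 0.000358 for Elovl3 and 0.00337 for Plin2. The cell cycle list, of which none passed, summed to between 152 and 168 TPM in experimental libraries and between 55.7 and 527 TPM in control libraries. All 9 endothelial markers with a row were at 0, and no gene of the T cell, Langerhans and macrophage, neutrophil, fibroblast or melanocyte lists passed. The part of these differences in the family's levels was not tested. Values of 1 TPM or less are listed at 0 in the deposited table, and TPM keeps no record of sequencing depth, so depth is unknown.

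The 4 members whose groups did not overlap were all higher in experimental epidermis: Slurp1, Lynx1, Lypd3 and Ly6g6c. Over all 10682 genes tested, 2.7% were higher and 9.94% lower without overlap, 12.6% in all. Because the members were chosen from this comparison, nothing is read from their 4 of 8 against those shares. The median log2 change of the 8 members was 0.57, against -0.18 over all tested genes. The 8 genes summed to 8228, 7344, 8001 and 6521 TPM in experimental libraries 1 to 4, against 5276, 5503, 4629.8 and 5176 TPM in control libraries 1 to 4. Every experimental sum lay above every control sum. The granular layer list stood beside this with 6 of 24 tested genes higher without overlap, Krt1 and Krtdap among them. The part of that list's genes or cells in the members' levels was not tested. The members made up 0.891% ± 0.0808 of all listed TPM in experimental libraries and 0.611% ± 0.0409 in control libraries (SD, n = 4 each). Libraries are numbered in table order within a group, and numbers do not pair libraries. In bulk epidermis, a change in the number of cells of a type and a change in RNA per cell cannot be told apart.

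**Figure D1:**
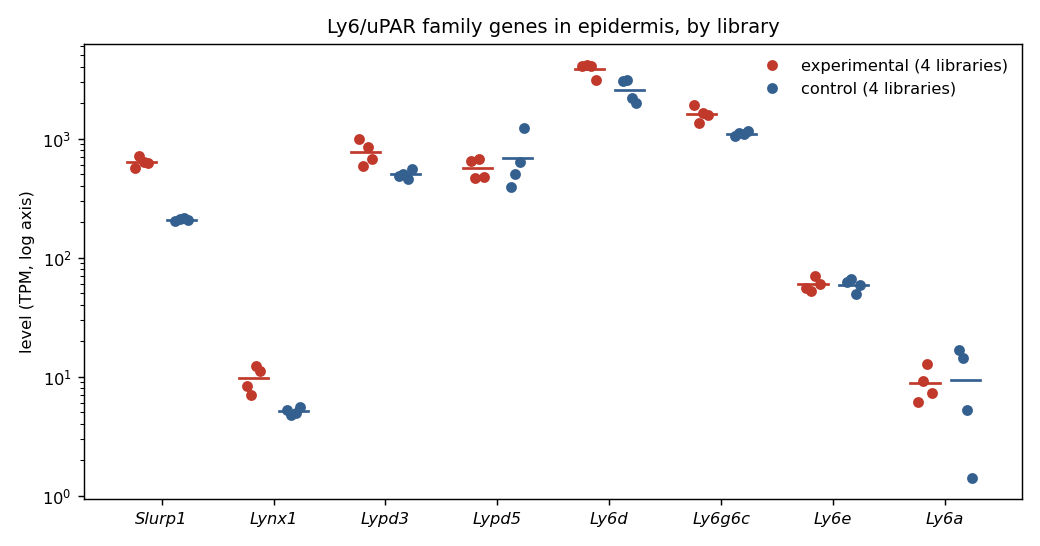
Level of each of the 8 genes (TPM, log axis) in each library, with experimental libraries left of control libraries and a horizontal line at each group mean. The groups stand apart for Slurp1, Lynx1, Lypd3 and Ly6g6c, nearly so for Ly6d, and overlap for Lypd5, Ly6e and Ly6a.

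By mean level in experimental libraries, the order ran Ly6d, Ly6g6c, Lypd3, Slurp1, Lypd5, Ly6e, Lynx1 and Ly6a. The ranges over libraries of Lypd3, Slurp1 and Lypd5 overlapped one another there, as did those of Lynx1 and Ly6a. In control libraries the order was Ly6d, Ly6g6c, Lypd5, Lypd3, Slurp1, Ly6e, Ly6a and Lynx1. Lypd5 overlapped both Ly6g6c, which it exceeded in control 4, and Lypd3 in those libraries, and Ly6a overlapped Lynx1, while Slurp1 lay below every value of Lypd3 and Lypd5. Slurp1 supplied 8.53% ± 1.37 of the members' summed TPM in experimental libraries and 4.05% ± 0.385 in control libraries (SD, n = 4 each). Ly6d supplied 51.1% ± 4.14 in experimental and 49.8% ± 9.15 in control libraries.

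Slurp1 (ENSMUSG00000022596.3; GRCm38 chromosome 15, 74724318 to 74728034, minus strand) encodes a secreted ligand of nicotinic receptors made by upper-layer keratinocytes. Its level was 563, 709, 639 and 628 TPM in experimental libraries 1 to 4, against 202, 209, 214 and 206 TPM in control libraries 1 to 4. Every experimental library was far above every control library, and the control libraries lay closer together than those of any other member. The group means were 635 ± 59.8 TPM in experimental and 208 ± 5.14 TPM in control epidermis (SD, n = 4 each), a ratio of 3.06. The log2 change was 1.60 with a standard error (SE) of 0.15, the largest of the 8, and it ranged between 1.53 and 1.82 over the alternative settings. The coefficient of variation among control libraries was 2.48%, while the basal keratinocyte sum of the same libraries ran between 928 and 8113 TPM. Among all genes of a library, Slurp1 ranked 162 to 202 by TPM in experimental and 419 to 481 in control libraries. The 3′ end of Slurp1 overlaps Them6 on the other strand by 322 bases, and Them6 was at 0 in all libraries.

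Slurp2 (chromosome 15, 74742764 to 74746693, minus strand), the other secreted SLURP and not one of the 8 members, lies close by. Its level was 334, 369.7, 374 and 395 TPM in experimental libraries, against 138, 158, 154 and 168 TPM in control libraries, and the groups did not overlap. Slurp2 averaged 368 ± 25.3 TPM in experimental and 154 ± 12.5 TPM in control epidermis (SD, n = 4 each), 2.38 times as much. It rose by 1.25 on the log2 scale (SE 0.15, limma adjusted p = 0.00334), and the adjusted p was 0.0859 without experimental libraries 2 and 4.

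The profile of Slurp1 over the 8 libraries was compared with that of every tested gene, as the root mean square difference of log2 levels centred on each gene's own mean. The nearest gene (ENSMUSG00000025888.6, 0.183) has no symbol in the reference names. Its level was 6.61, 7.36, 7.25 and 8.14 TPM in experimental libraries, against 1.92, 1.76, 1.44 and 0 TPM in control libraries. Slurp2 was the next nearest (0.202), followed by Smim24 (0.214), Zbtb32 (0.224) and Scgb2b27 (0.278). Smim24, a small membrane protein gene, averaged 8.50 ± 1.63 TPM in experimental and 2.38 ± 0.324 TPM in control libraries (SD, n = 4 each). Zbtb32, a zinc finger repressor gene known from lymphocytes, averaged 5.31 ± 0.676 TPM in experimental and 1.47 ± 0.328 TPM in control libraries (SD, n = 4 each). Scgb2b27, a secretoglobin gene, was at 6.57, 6.18, 9.10 and 7.58 TPM in experimental libraries and listed at 0 in all 4 control libraries. The measure sorts by the difference between the groups and by the spread within them. Of the other members, Lynx1 stood at place 97 of this order, Ly6d at 210, Ly6g6c at 223 and Lypd3 at 230, while Ly6e, Lypd5 and Ly6a were at places 1951, 7220 and 8527.

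Lynx1 (ENSMUSG00000022594.14; chromosome 15, 74747852 to 74753046, minus strand) encodes a GPI-anchored protein that binds nicotinic receptors and is best known from neurons. Its level was 8.27, 7.07, 12.2 and 11.1 TPM in experimental libraries, against 5.25, 4.72, 4.94 and 5.53 TPM in control libraries. The groups did not overlap, although the gap between experimental 2 and control 4 was small beside the range of the experimental libraries. Lynx1 averaged 9.66 ± 2.39 TPM in experimental and 5.11 ± 0.355 TPM in control epidermis (SD, n = 4 each). Its log2 change was 0.78 with an SE of 0.19. It had the lowest mean of the 8 in control libraries, and it was far below Slurp1 and Slurp2 in all libraries.

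The receptors that SLURP1 and LYNX1 bind in other settings were at or near the floor. Of 16 nicotinic receptor subunit genes listed, 15 had a row, 12 of them were at 0 in every library, and none reached the mean of 1 TPM needed for a test. Chrna7, the subunit gene most often tied to SLURP1, was at 0 in all libraries. The listed values summed to no more than 2.39 TPM in any experimental and 4.28 TPM in any control library. Each listed 0 was counted as 0 there, so the true sums may be higher. A listed 0 means 1 TPM or less and does not show absence.

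Ly6d (ENSMUSG00000034634.7; chromosome 15, 74762056 to 74763620, minus strand) encodes a GPI-anchored keratinocyte surface antigen, known in human skin as the E48 antigen and in mouse bone marrow as a B-lineage marker. It was the most abundant member in every library. Its level was 4039, 4173, 4105 and 3082 TPM in experimental libraries, against 3057, 3088, 2180.4 and 1970.4 TPM in control libraries. Experimental 4 lay just below control 2, and the other 3 experimental libraries were above every control library. Ly6d averaged 3849.7 ± 515 TPM in experimental and 2574 ± 582 TPM in control epidermis (SD, n = 4 each). The log2 change was 0.60 with an SE of 0.23. The change was 0.31 when control libraries 3 and 4 were left out and 0.88 when control libraries 1 and 2 were left out. Ly6d ranked 26 to 34 among all genes by TPM in experimental libraries and 38 to 67 in control libraries.

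The chromosome 15 stretch running from Psca to Ly6k (74714839 to 74799986, 85.1 kb) holds 9 genes with a row in the table. Of these, 7 are on the family lists used here and 8 of all 9 were tested. Genes without a row were not counted. Slurp1, Lypd2, Slurp2, Lynx1, Ly6d and Ly6k each had a positive log2 change. Among genes with a row they follow each other without another gene but D730001G18Rik, which lies between Ly6d and Ly6k. The ends of the stretch were chosen by hand, and family genes continue past Ly6k. There Ly6e had a log2 change of 0.01 (SE 0.17) and Ly6a of 0.25 (SE 0.55). Gml, Gml2, Ly6i, Ly6c1, Ly6c2, Ly6g, Ly6f, Ly6l and Ly6h, also past Ly6k, were at 0 in every library. The run of positive changes thus holds for the chosen stretch only. Lypd2, a GPI-anchored family gene, was at 4.77, 4.34, 5.76 and 2.66 TPM in experimental libraries, against 2.07, 1.93, 1.01 and 2.19 TPM in control libraries. These groups did not overlap, yet its log2 change of 0.93 (SE 0.23) had a limma adjusted p of 0.0649. Ly6k, a family gene known from testis, averaged 2.89 ± 0.877 TPM in experimental and 1.86 ± 0.540 TPM in control libraries (SD, n = 4 each; log2 change 0.43, limma adjusted p = 0.341). D730001G18Rik averaged 96.4 TPM in experimental and 309 TPM in control libraries, a log2 change of -1.49 with a limma adjusted p of 0.315. It is not on the family list used here, and whether it belongs to the family was not checked.

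Psca, which encodes prostate stem cell antigen and lies at the edge of this stretch on the plus strand (74714839 to 74717069), went the other way. Its level was 5.11, 3.55, 4.38 and 1.85 TPM in experimental libraries, against 9.57, 12.8, 8.21 and 23.2 TPM in control libraries. Every experimental library was below every control library, with control 4 highest. Psca averaged 3.72 ± 1.40 TPM in experimental and 13.4 ± 6.76 TPM in control epidermis (SD, n = 4 each), and fell by 1.56 on the log2 scale (SE 0.33, limma adjusted p = 0.037). The call was lost under 11 of 18 alternative settings, among them median centring (adjusted p = 0.110). The authors' deposited table, whose 748 rows all have a negative fold change, gives Psca a log2 fold change of -1.72 with an SE of 0.50 and an adjusted p of 0.0106. None of the 8 members is in that table.

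**Figure D2:**
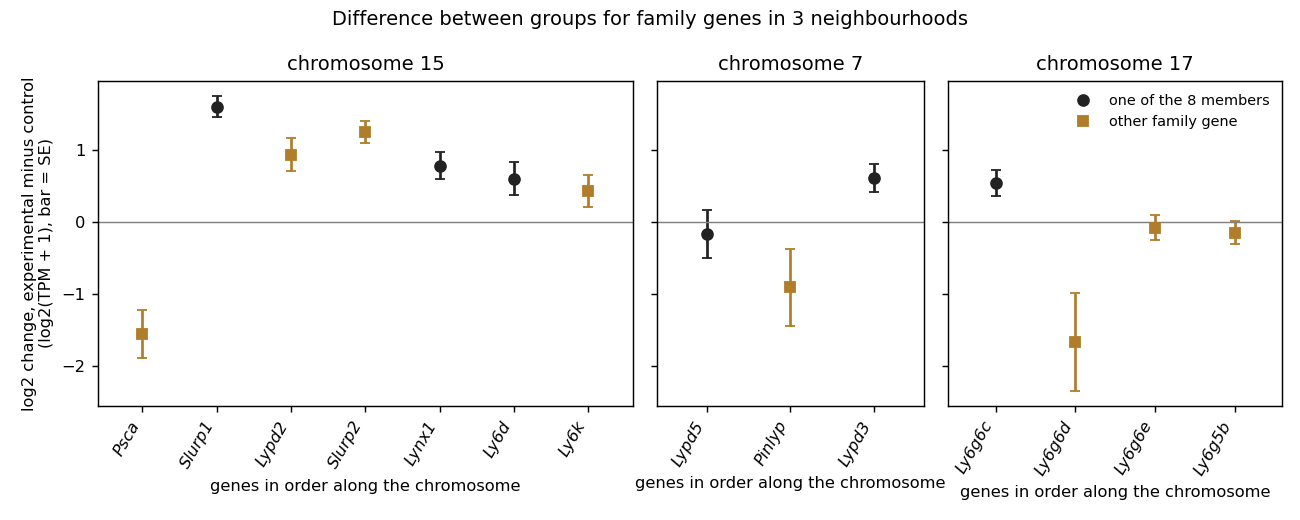
Log2 change of tested family genes (experimental minus control, bars show SE) within the described stretches of chromosomes 15, 7 and 17. Genes stand in order along each stretch, with members as black circles and other family genes as brown squares. On chromosome 15 all plotted genes but Psca lie above 0, while members and neighbours lie on both sides of 0 on chromosomes 7 and 17. The members Ly6e and Ly6a, which lie on chromosome 15 outside the stretch, are not plotted, nor is D730001G18Rik, which is not on the family list.

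Lypd3 and Lypd5 lie on chromosome 7, 291.9 kb apart from outer end to outer end, and Ly6g6c lies on chromosome 17 in the class III region of the major histocompatibility complex. Promoters of these 3 members were held by the RefSeq table (build GRCm38.p6), and the 250 bases before the start of each are shown because 1 of them, that of Ly6g6c, falls inside an intron reported below as retained. All 3 are plus-strand genes read 5′ to 3′, and capitals mark a TATA box (TATAAA).
Lypd3, chr7:24636320-24636569: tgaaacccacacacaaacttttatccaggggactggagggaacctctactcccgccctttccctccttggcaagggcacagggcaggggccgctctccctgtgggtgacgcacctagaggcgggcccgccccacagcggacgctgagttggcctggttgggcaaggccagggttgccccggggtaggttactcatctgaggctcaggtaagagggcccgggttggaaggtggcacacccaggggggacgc
Lypd5, chr7:24348946-24349195: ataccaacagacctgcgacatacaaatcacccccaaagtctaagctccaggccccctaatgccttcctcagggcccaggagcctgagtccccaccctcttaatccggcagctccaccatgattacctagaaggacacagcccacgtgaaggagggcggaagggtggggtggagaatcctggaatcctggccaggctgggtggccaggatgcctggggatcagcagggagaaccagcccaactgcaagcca
Ly6g6c, chr17:35067075-35067324: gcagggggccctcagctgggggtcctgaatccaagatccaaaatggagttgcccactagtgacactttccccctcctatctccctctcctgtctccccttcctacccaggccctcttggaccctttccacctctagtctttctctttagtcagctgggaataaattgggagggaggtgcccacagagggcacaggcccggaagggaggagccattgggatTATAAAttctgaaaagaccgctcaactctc
The TATA box of Ly6g6c was the single match in these windows to the 5 motifs searched on both strands, which were AP-1 (TGANTCA), Grainyhead (AACCGGTT), the TATA box, an interferon-stimulated response element (GAAA, any 2 bases, then GAAA again) and STAT (TTCNNNGAA). Over 32851 promoter windows of the same length, 6.75% held the AP-1 motif, 0.116% the Grainyhead motif and 12.4% the TATA box. The interferon element was held by 2.98% and the STAT motif by 7.02%. The GC content was 65.2% for Lypd3, 59.6% for Lypd5 and 55.2% for Ly6g6c, against a median of 52.4% over all windows. A match or its lack in such a window says nothing of which factors act there.

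Lypd3 (ENSMUSG00000057454.5; 24636550 to 24641118, plus strand) encodes C4.4A, a GPI-anchored relative of the urokinase receptor found in suprabasal squamous epithelium. Its level was 988, 589.9, 848 and 679 TPM in experimental libraries, against 480.1, 507, 454 and 556 TPM in control libraries. The groups did not overlap, with experimental 2 just above control 4. Lypd3 averaged 777 ± 177 TPM in experimental and 499 ± 43.8 TPM in control epidermis (SD, n = 4 each). This gave a log2 change of 0.61 with an SE of 0.20. The first 1367 bases overlap Gm26550, a gene on the other strand that has no row in the table.

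Lypd5 (ENSMUSG00000030484.5; 24349196 to 24355109, plus strand) encodes a GPI-anchored protein that in human skin marks the granular layer. Its level was 653, 464, 674 and 477 TPM in experimental libraries, against 394, 500.2, 639 and 1232 TPM in control libraries. The groups overlapped, and the wide spread of the control libraries came from control 4. Lypd5 averaged 567 ± 112 TPM in experimental and 691 ± 374 TPM in control epidermis (SD, n = 4 each). The log2 change was -0.17 with an SE of 0.33. Its direction was not stable, since the change was 0.16 without control 4 and 0.33 once control libraries 3 and 4 were left out. It was -0.67 with control libraries 1 and 2 left out, and 0.05 with median centring.

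Between Lypd5 and Lypd3 lie 2 more family genes. Plaur, the urokinase receptor gene, was above the floor in experimental 1 alone (2.22 TPM) and was not tested. Pinlyp, which encodes a phospholipase inhibitor with the same fold, was at 508, 129.7, 215 and 225 TPM in experimental libraries, against 186, 403, 491 and 1089 TPM in control libraries. These groups overlapped (log2 change -0.91, SE 0.53, limma adjusted p = 0.408).

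Ly6g6c (ENSMUSG00000092586.8; chromosome 17, 35065388 to 35070050, plus strand) encodes a GPI-anchored family protein. Its level was 1914, 1339, 1639 and 1577 TPM in experimental libraries, against 1059.7, 1114, 1083 and 1146 TPM in control libraries. Every experimental library lay above every control library, and the control libraries lay close together. Ly6g6c averaged 1617 ± 236 TPM in experimental and 1101 ± 37.5 TPM in control epidermis (SD, n = 4 each). The log2 change was 0.54 with an SE of 0.18. Its neighbour Ly6g6d was at 359.7, 56.8, 104 and 302 TPM in experimental libraries, against 185, 361, 875 and 1141 TPM in control libraries. The groups of Ly6g6d overlapped (log2 change -1.67, SE 0.68, limma adjusted p = 0.243). Ly6g6e averaged 77.4 ± 13.5 TPM in experimental and 80.8 ± 5.30 TPM in control libraries (SD, n = 4 each), a log2 change of -0.08.

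Ly6g6c was the 1 member found in the authors' deposited MAJIQ table, and none of the 41 other family genes was there. The table holds 236 genes and gives percent spliced in (PSI) as a fraction pooled over each group. The table lists an intron at chromosome 17, 35065905 to 35067324 (1420 bases), with a PSI of 0.600 in the experimental group and 0.001 in the control group. MAJIQ's own estimate of the difference was 0.614, with a posterior probability of 1 that it is at least 0.15. A junction of the same event, at 35065904 to 35068163, had a PSI of 0.314 in the experimental group and 0.742 in the control group (difference -0.454, posterior probability 1). Together the intron and this junction fall short of a PSI of 1 in both groups, more so in the control group. What makes up the rest is not described here. By size of difference this intron stood at place 21 of 153 intron entries in the authors' deposited table, whose median absolute difference was 0.319. With 1 pooled value a group, no spread between libraries could be given.

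**Figure D3:**
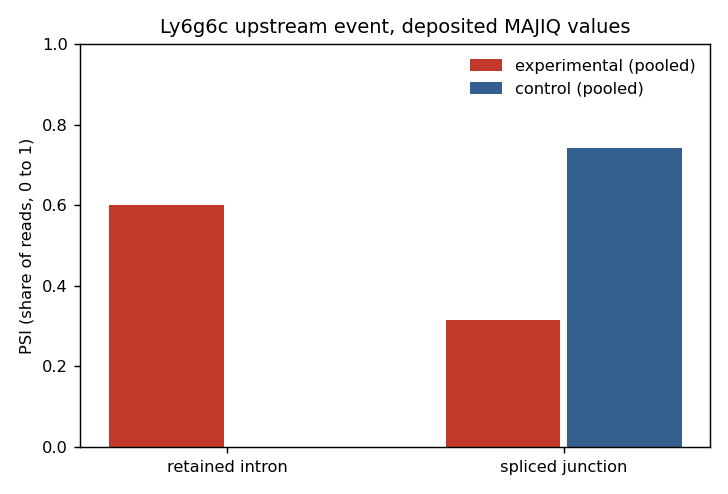
PSI (fraction, 0 to 1) of the Ly6g6c upstream intron and of the junction that spans it, from the authors' deposited table. Values are pooled over the experimental (red) and control (blue) libraries, without error bars because each group has 1 pooled value. The intron stands at 0.600 in the experimental group against 0.001 in the control group, which is too low to see.

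The intron ends 1 base before the first base of the RefSeq transcript (35067325), so the promoter window printed above lies wholly inside it. The junction start is 454 bases past the annotated first exon of the longer Ly6g6c transcript (35065388 to 35065450). It is also an edge of an exon of Mpig6b, a platelet inhibitory receptor gene on the other strand. Read on that minus strand, this base is where the Mpig6b exon begins. The junction end at 35068163 lies between annotated exons of Ly6g6c, and the table marks the event as absent from the annotation. Ly6g6c and Mpig6b overlap by 797 bases, and the sources used here do not say whether counting used strand, so reads of the 2 genes may not be separable there. Mpig6b was at 3.04 to 4.64 TPM in experimental libraries and 4.02 to 5.14 TPM in control libraries. The PSI is a share among the junctions of this event and not of all Ly6g6c transcripts, so it cannot be set against the gene's TPM.

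Ly6e (ENSMUSG00000022587.14; chromosome 15, 74955051 to 74959905, plus strand) and Ly6a (ENSMUSG00000075602.10; chromosome 15, 74994877 to 74998031, minus strand) are interferon-inducible GPI-anchored genes. Ly6e is known as a restriction factor of coronaviruses, and Ly6a encodes Sca-1, a marker of mouse stem and progenitor cells. Ly6e was at 55.9, 52.4, 70.4 and 59.5 TPM in experimental libraries, against 62.1, 65.9, 49.5 and 59.2 TPM in control libraries. The groups overlapped almost wholly, with means of 59.5 ± 7.79 TPM in experimental and 59.2 ± 7.004 TPM in control epidermis (SD, n = 4 each). The log2 change of Ly6e was 0.01 (SE 0.17) and ranged between -0.11 and 0.22 over the alternatives.

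Ly6a was at 6.07, 9.17, 12.7 and 7.24 TPM in experimental libraries, against 16.6, 14.3, 5.23 and 1.40 TPM in control libraries. All 4 experimental libraries lay within the range of the control libraries. Ly6a has close relatives among the Ly6 genes, between which reads may be split in counting, so its level is uncertain. Ly6a averaged 8.79 ± 2.88 TPM in experimental and 9.39 ± 7.25 TPM in control epidermis (SD, n = 4 each), while its log2 change was 0.25 (SE 0.55), so the mean of levels and the mean of logs differ in direction. Leaving out control libraries 3 and 4 gave -0.79, and leaving out control libraries 1 and 2 gave 1.30. Of 23 interferon response genes listed, 6 were tested and none passed limma's adjusted threshold, nor an unadjusted p under 0.05. Their median log2 change was 0.19. Those of lowest p were Stat2, at 2.26 ± 0.520 TPM in experimental and 3.16 ± 0.423 TPM in control libraries (adjusted p = 0.318), and Irf7, at 24.0 ± 6.07 TPM in experimental and 18.3 ± 2.71 TPM in control libraries (adjusted p = 0.408; SD, n = 4 each).

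Lypd5, Ly6a and Ly6d, though not Ly6e, spread more among control than among experimental libraries. Control 4, with the highest hair follicle sum (59548 TPM), had the highest Lypd5, Pinlyp and Ly6g6d of all 8 libraries. The same library had the lowest basal keratinocyte sum (928 TPM) and the lowest Ly6a and Ly6d. Control 1, with the highest basal sum (8113 TPM), had the highest Ly6a. Slurp1 was within 202 to 214 TPM in these libraries. The part of hair follicle or basal cells in the levels of Lypd5, Ly6a and Ly6d was not tested.

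**Figure D4:**
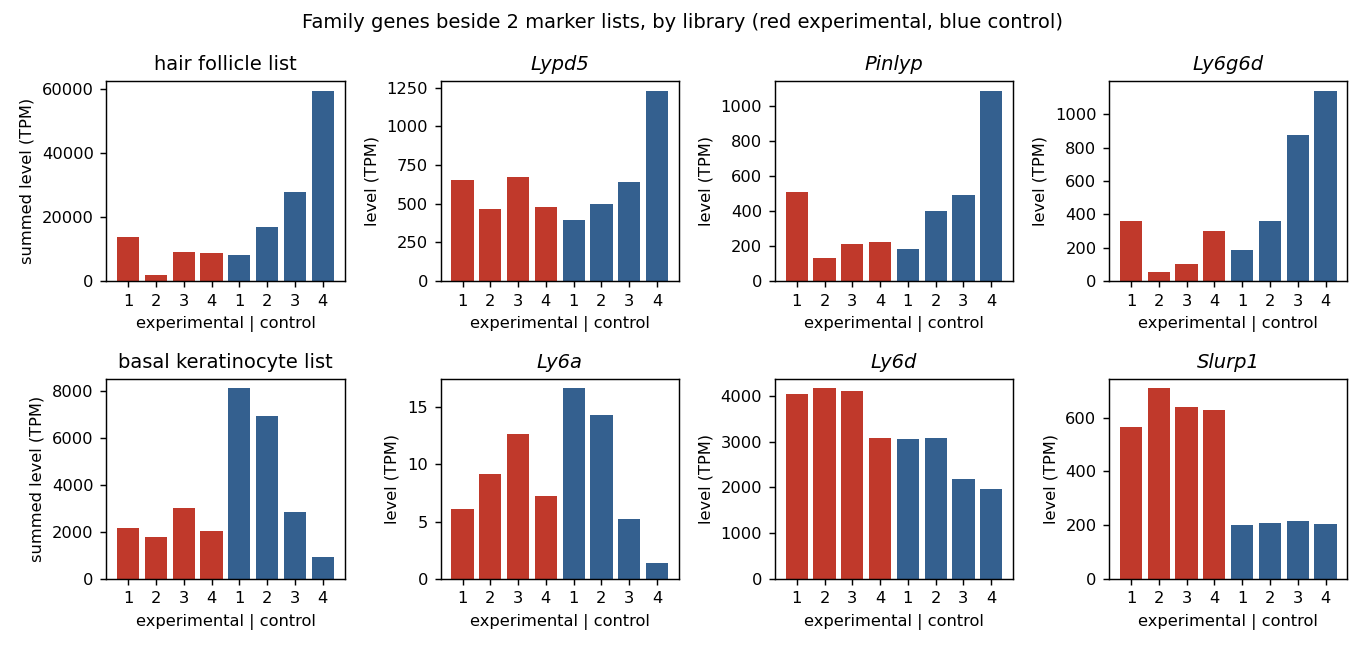
Summed TPM of the hair follicle and basal keratinocyte lists beside the TPM of 6 family genes in each library, experimental libraries in red at left and control libraries in blue at right. Lypd5, Pinlyp and Ly6g6d are highest in control 4, where the hair follicle sum is 59548 TPM, Ly6a and Ly6d are lowest there, and Slurp1 stays between 202 and 214 TPM in all 4 control libraries.

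Of 41 other Ly6/uPAR family genes listed, 36 had a row, 22 of these were at 0 in every library and 11 were tested. Of those tested, 1 rose (Slurp2) and 1 fell (Psca) at a limma adjusted p under 0.05, against 0.917% higher and 1.54% lower, 2.46% in all, over the 10682 genes. Their median log2 change was -0.23, and 8 of 11 lay below 0. Genes at 0 in every library included Ly6c1, Ly6c2 and Ly6g, surface markers of mouse leukocytes. Lypd1 was at 0, 1.79, 2.15 and 1.87 TPM in experimental libraries and at 0 in all 4 control libraries.

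The urokinase system, in which PLAUR is the receptor, had 8 tested genes of 16 listed, of which 1 rose and none fell (median log2 change -0.12). The gene that rose was Serpinb2, an inhibitor of urokinase, at 187, 117, 175 and 141 TPM in experimental libraries, against 96.3, 89.6, 59.4 and 58.9 TPM in control libraries. Its groups did not overlap, and it averaged 155 ± 31.9 TPM in experimental and 76.0 ± 19.7 TPM in control epidermis (SD, n = 4 each; limma log2 change 1.03 with SE 0.23, adjusted p = 0.0453). That call sat at the threshold and was lost under 9 of 18 alternatives, with adjusted p between 0.0056 and 0.175.

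Most members depend on the GPI anchor for their place at the cell surface. Of 30 listed genes that build the anchor, 28 were tested and none passed limma's adjusted threshold, with 6 of 28 at an unadjusted p under 0.05, against 1810 of all 10682. The log2 change was below 0 for 22 of 28, with a median of -0.21 against -0.18 over all genes. Groups did not overlap for 7 lower and 2 higher genes of the 28, where 9.94% and 2.7% of all genes were lower and higher without overlap. Pigg, which adds ethanolamine phosphate to the anchor, was at 3.69, 2.79, 4.35 and 5.62 TPM in experimental libraries, against 8.34, 7.08, 8.43 and 8.32 TPM in control libraries. The groups did not overlap, and the log2 change in limma was -0.85 (SE 0.20, adjusted p = 0.0532). Pigh, a subunit of the enzyme of the first step, averaged 3.31 ± 0.765 TPM in experimental and 5.58 ± 0.730 TPM in control libraries (SD, n = 4 each; limma adjusted p = 0.111). The authors' deposited table holds Pigg (log2 fold change -0.82, adjusted p 0.00675) and Pgap1 (-0.59, adjusted p 0.03).

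Of 31 genes for GPI-anchored proteins outside the family, 23 were tested and none passed limma's adjusted threshold, with 5 of 23 at an unadjusted p under 0.05 (1810 of 10682 over all genes) and a median log2 change of -0.15. Cd24a, a GPI-anchored adhesion protein gene, averaged 361 ± 54.2 TPM in experimental and 201 ± 58.1 TPM in control libraries (SD, n = 4 each; log2 change 0.88, limma adjusted p = 0.0832). Efna2, which encodes a GPI-anchored ephrin, averaged 3.40 ± 1.11 TPM in experimental and 8.71 ± 4.62 TPM in control libraries (SD, n = 4 each; log2 change -1.07, limma adjusted p = 0.115).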

How the data were processed

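RNA-seq of 8 epidermis libraries was analysed from the authors' processed tables. Tools named in the submitters' processing notes were Salmon 0.14.0, STAR, SAMtools 1.9 and DESeq, with builds GRCm38 and mm10. The expression values deposited by the authors are log2 TPM of each gene with no batch correction, per the table's name, and 49.6% of entries are 0, read as 1 TPM or less. For each listed gene the authors' deposited comparison holds the mean normalized signal, the log2 fold change, a Wald score and p-values, per the file headers. The authors' deposited MAJIQ table gives PSI as a fraction per group and, as scores, its difference and posterior probability, per the file headers. The difference is experimental minus control as deposited. TPM keeps no depth, so no counting interval could be given.

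For log2 changes and profiles, values were returned to TPM with a floor of 1 TPM and put on a log2(TPM + 1) scale, which understates the change of low genes. Printed levels, means, SDs and sums in TPM, and the filter, counted a listed 0 as 0. Every gene averaging 1 TPM or more was fitted with limma 3.58.1 in R 4.3.3 (group as the only term, eBayes with trend, two-sided, Benjamini-Hochberg adjusted over 10682 genes, threshold 0.05). The fit was tested on simulated data. The design assumed log2(TPM + 1) as deposited; the deposited values are log2 TPM. SE of a change is limma's. Other steps used Python 3.11.15, pandas 2.3.3, numpy 2.4.6 and matplotlib 3.10.9. Of 21690 identifiers, 21227 matched a symbol. Coordinates are GENCODE M21 on GRCm38 unless RefSeq is named; no position was converted between builds.

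The 8 members and all gene lists were chosen with earlier results of these data known. Named genes were the members, in each list the passing genes of lowest p, up to 4, or the 2 of lowest p, and the 5 profiles nearest to Slurp1. The rule's genes of the cell cycle, T cell, Langerhans and macrophage, neutrophil, fibroblast and melanocyte lists, none of which passed, are not given. Other genes of the 3 neighbourhoods, further family genes, and the receptors were named after their values were seen. Alternatives were pseudocounts of 0.1 and 0.5 TPM, no filter, a mean of at least 5 TPM, median centring, quantile normalization, no variance trend, and leaving out libraries. Table columns carry the group but not the labels' replicate numbers, so libraries were not paired.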

Additional observations from a re-analysis of the deposited data

Results flagged for a closer look

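In 36 groups of 4 libraries checked for a library standing apart from the other 3, 2 had one, and chance alone gives about 1 in 20 groups. For Ly6d in experimental libraries, experimental 4 (3082 TPM) lay below the other 3 (4039, 4173 and 4105 TPM), and its gap to the nearest, on the log2(TPM + 1) scale, was 0.892 of the group's range. For Pigg in control libraries, control 2 (7.08 TPM) lay below the other 3, with a gap of 0.92 of the range on the same scale.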

How the results depend on the processing

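No paired analysis was possible because the table's columns carry no replicate numbers that match the labels. Signs of the log2 changes of Slurp1, Lynx1, Lypd3, Ly6d, Ly6g6c, Slurp2, Psca, Serpinb2, Krt15, Elovl3 and Plin2 were kept under all 18 alternatives, while Lypd5 was below 0 in 14, Ly6a in 2 and Ly6e in 3. Over all genes, 263 were called, and leaving out 1 library gave between 85 and 578. The count was 2595 without controls 3 and 4, 544 without controls 1 and 2, and 15 without experimental libraries 2 and 4. The split of 98 higher and 165 lower became 283 and 102 with median centring and 269 and 117 with quantile normalization, which put the median gene at 0.03 and 0.02 in place of -0.18. Other family genes called numbered 2, against 1 with no filter, 1 with quantile normalization, 4 without controls 3 and 4, 1 without controls 1 and 2, 0 without experimental libraries 2 and 4, and 1 to 3 without single libraries. Urokinase system genes called numbered 1, against 0 with no filter, with a mean of at least 5 TPM and without experimental libraries 2 and 4, 4 without controls 3 and 4, and 0 to 2 without single libraries. GPI anchor synthesis genes called numbered 0, against 1 with median centring, 1 with quantile normalization, 2 without controls 3 and 4, and 0 to 1 without single libraries. Other GPI-anchored genes called numbered 0, against 1 with median centring, 5 without controls 3 and 4, and 2 without controls 1 and 2. Interferon counts were 0 under every alternative. Nicotinic receptor counts were 0 as well, but 0 of these genes were tested in the main fit. With no filter 3 were tested, and without controls 1 and 2 there was 1. Under the other alternatives none was tested, so the count could only be 0 there. The cause of these shifts was not tested. Psca lost its call with no filter (adjusted p = 0.0646), with median centring, with quantile normalization (0.114), without controls 1 and 2 (0.0513), without experimental libraries 2 and 4 (0.387), without any 1 experimental library (0.0534 to 0.112), and without control 2 (0.0908) or control 3 (0.0541). Without single libraries the adjusted p of Krt15 lay between 0.00066 and 0.110, and that of Plin2 between 0.0112 and 0.145.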
